A study of Mus musculus with 6 samples.

Results

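The integrated stress response genes described here are *Atf4*, *Atf5*, *Ddit3*, *Asns*, *Trib3*, *Chac1*, *Fgf21*, *Gdf15*, *Psat1* and *Phgdh*. These 10 genes of the ATF4 pathway were taken by name, out of 54232 genes in the count files. Heart ventricle RNA had been sequenced from 3 C57BL/6J wild-type mice on western diet (WD) given Tributyrin, a triglyceride of the short chain fatty acid butyrate, and from 3 such mice given vehicle, which the labels name PBS. All 6 mice had been on WD for 15 weeks when treatment began. Treatment was by needle feeding for 3 weeks, 2 days on and 2 days off, with Tributyrin at 5 g/kg body weight. No mice on normal chow were analysed here, so every value is for a heart under WD, and ages are not in the labels. The comparison asks whether transcripts of this stress pathway differ in the heart after Tributyrin.

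In the integrated stress response, kinases that sense amino acid shortage, misfolded protein in the endoplasmic reticulum, double-stranded RNA or mitochondrial and heme stress phosphorylate the translation factor eIF2. General protein synthesis then falls, while upstream reading frames in their messages let ATF4, ATF5 and CHOP be made. ATF4 turns on genes for amino acid synthesis and transport, genes that feed back on the response, and the secreted factors FGF21 and GDF15. Much of the control of ATF4 lies in translation, which transcript counts do not measure.

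With Tributyrin, none of the 9 genes that could be tested showed a difference from vehicle that held after adjustment over all genes tested. The mean with Tributyrin against that with vehicle was 11.2% for *Atf4* itself, -4.12% for *Atf5* and -5.22% for *Ddit3*, each with groups that overlapped. The widest difference of the 9 was -48.3% for *Gdf15*, which was also counted from few reads. The filter on low counts left 9 of the 10 genes to be tested, and *Fgf21* was left out by it. Of the 9 genes, 0 passed a false discovery rate (FDR) of 10% or 5% by edgeR (quasi-likelihood test, Benjamini-Hochberg adjustment for all 14133 genes), and 0% of all genes passed either. At an unadjusted p under 0.05 there was 1 gene, *Gdf15*, where 4.25% of all genes tested reached this. DESeq2, run without this filter, gave 0 of the genes at an FDR of 10% or at an unadjusted p under 0.05. It gave no adjusted p for *Phgdh*, which could therefore not pass an FDR there. Of the 25578 genes in DESeq2, which include genes without an adjusted p, 0.043% and 1.8% reached these thresholds. These 2 shares are over more genes than those of edgeR and cannot be set beside them directly. With limma-voom, 0 of the genes and 0% of all genes passed an FDR of 10%, and 1 of them and 4.28% of all genes had an unadjusted p under 0.05. Groups that did not overlap were found in 0 of the 9 genes and in 8.91% of all genes tested, and 9 genes are too few to tell these shares apart. A fold change of at least 1.5 in either direction was seen in 1 of the 9 genes, again *Gdf15*, and in 3.45% of all genes. The log2 fold change (Tributyrin over vehicle) was above 0 for 3 of the 9 genes and for 49.6% of all genes. Its median was -0.076 over the 9 genes and -0.00129 over all genes.

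The libraries held between 20369746 and 32734485 counts on genes. CPM are counts scaled to equal effective library sizes, which are the totals times edgeR's TMM factors. The ventricular cardiomyocyte markers summed to between 55453 and 60883 CPM in every library. All 9 of these markers were present, 6 higher and 3 lower with Tributyrin. By edgeR 4 of the 9 had an unadjusted p under 0.05, beside 4.25% of all genes tested, and 0 passed an FDR of 10%. The atrial markers *Sln*, *Myl4*, *Myl7*, *Nppa*, *Mybphl* and *Bmp10* summed to between 53.8 and 182 CPM with vehicle and between 31.04 and 64.4 CPM with Tributyrin. All 5 atrial markers tested were lower with Tributyrin, and 4 had an unadjusted p under 0.05. Of all genes tested, 2.28% were lower at this threshold. By edgeR 0 of the atrial markers passed an FDR of 10%. By the Y-linked gene *Ddx3y* (68.4 to 85.5 CPM) and by *Xist* (at most 0.237 CPM), the 6 mice did not differ in sex. In whole tissue, fewer cells of a type and less RNA per cell cannot be told apart.

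Levels were compared between genes as reads per kilobase of exon, scaled to effective library size like CPM (RPKM). The transcription factors were the most abundant. *Atf4* averaged 25.8 ± 2.35 RPKM (SD, n = 6) and *Atf5* 24.0 ± 1.54 (SD, n = 6), and their ranges over the 6 mice overlapped. At this level *Atf4* was above 91.3% of all genes tested. *Ddit3* followed with 6.23 ± 1.19 RPKM (SD, n = 6) and *Chac1* with 3.55 ± 0.656 (SD, n = 6), and the ranges of *Atf5*, *Ddit3*, *Chac1* and *Trib3* did not overlap from one gene to the next. The 3 synthesis enzymes were scarce in heart, with *Psat1* at 0.759 ± 0.173 RPKM, *Asns* at 0.48 ± 0.11 and *Phgdh* at 0.257 ± 0.0742 (SD, n = 6). *Trib3* lay above them at 1.3 ± 0.291 and *Gdf15* among them at 0.45 ± 0.221 RPKM (SD, n = 6). From *Trib3* down to *Fgf21*, the range of each gene overlapped that of the next. The level of *Phgdh* may be understated, because 47.8% of the 50-base stretches of its transcripts also occur in other annotated genes. *Fgf21* ended the order at 0.0483 RPKM in the mean, below all but 0.34% of the genes tested.

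**Figure D1:**
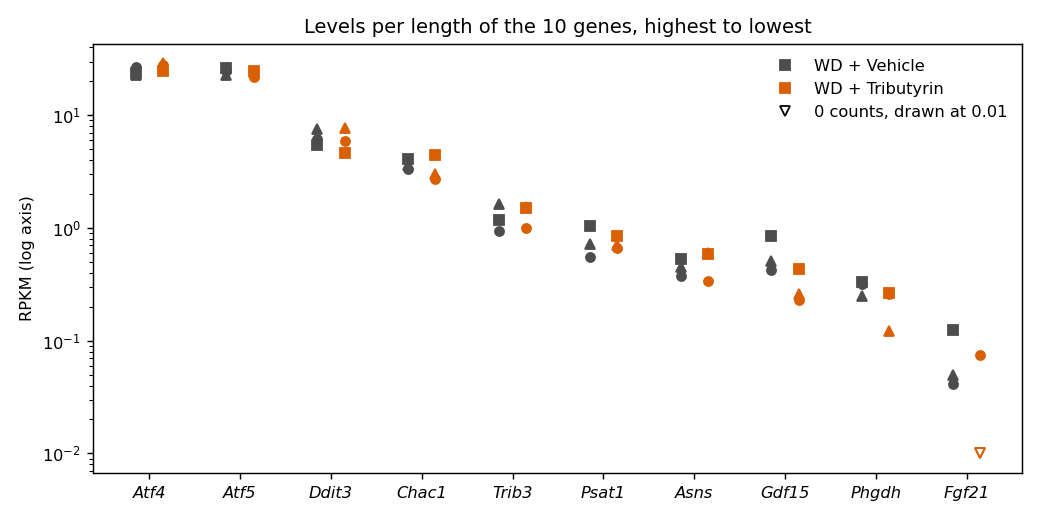
Levels of the 10 integrated stress response genes in RPKM on a log axis, in order of their mean, with 1 point per mouse (circle, square and triangle for replicates 1, 2 and 3). The range runs from 28.8 RPKM for *Atf4* down to *Fgf21*, which had 0 counts in 2 of the Tributyrin mice (open triangles, drawn at 0.01), and the ranges of the groups overlap in each gene.

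ATF4 binds DNA as a dimer with C/EBP proteins at composite elements that join a C/EBP and an ATF part, and the letters TGATGNAA were searched for on both strands as the core of such an element. RefSeq promoter windows (GRCm38.p6, from 250 bases before the RefSeq start to 50 after it) were found for all 10 genes, 13 windows in all. The letters were present in 4 of these 13 windows, from 4 genes (*Asns*, *Trib3*, *Chac1* and *Fgf21*), and in 3.97% of all 32851 windows. Stretches of *Chac1* and *Fgf21* are shown because the matches there have the same letters. Each has 60 bases from before the RefSeq start and outside the GENCODE gene, 5′ to 3′ in the direction of the gene, with the matched letters in capitals. A match describes the sequence and does not show a site in use.
*Chac1*, chr2:119351023-119351082, plus strand: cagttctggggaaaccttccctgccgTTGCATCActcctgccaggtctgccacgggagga
*Fgf21*, chr7:45615596-45615655, minus strand: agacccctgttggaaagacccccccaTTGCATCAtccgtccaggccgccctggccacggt
In *Chac1* and *Fgf21* the 8 letters lay on the strand opposite to the gene and began 193 and 139 bases before the RefSeq start. That start is 13 bases inside the GENCODE gene for *Chac1*, and it is the same base in both annotations for *Fgf21*. This form, TGATGCAA or its reverse complement, was in 0.895% of all windows. In *Asns* the match lay on the strand of the gene and began 23 bases before the RefSeq start, but this start is 45 bases inside the GENCODE gene, so that the match is within the gene as GENCODE gives it. In *Trib3* it began at base 15 from a RefSeq start that is 28 bases before the GENCODE gene. The 4 genes with these letters ran in level from 3.55 RPKM for *Chac1* to 0.0483 for *Fgf21*. Of the 3 that could be tested, *Asns* and *Trib3* had a mean above that of vehicle and *Chac1* a mean below it.

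*Atf4* encodes the transcription factor at the centre of the response. In GENCODE M21 (GRCm38) it spans bases 80255184 to 80257541 of chromosome 15 (plus strand) and is listed as ENSMUSG00000042406. Its normalized counts, which are counts divided by DESeq2's size factors, were 1649.5, 1476 and 1416 in the vehicle mice and 1725, 1534 and 1792 in the Tributyrin mice. Tributyrin mice 1 and 3 lay above every vehicle mouse, and Tributyrin mouse 2 lay among them. The means were 1514 ± 121 for vehicle and 1684 ± 134 for Tributyrin (SD, n = 3 each). The log2 fold change was 0.15 (standard error 0.086, 95% interval -0.038 to 0.34), with an adjusted p of 0.999 in edgeR's quasi-likelihood test. On the linear scale this interval runs from 0.974-fold to 1.27-fold. An exact two-sided permutation test gave p = 0.2, where 3 mice against 3 cannot go below 0.1. At least 1140 reads were counted on *Atf4* in each library, so the counting error was at most 2.96% of a value, against an SD of 8% between the vehicle mice.

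*Atf5* encodes a related bZIP factor, known for its part in the response to mitochondrial stress. The gene spans bases 44812256 to 44816658 of chromosome 7 (minus strand). Its normalized counts were 1294, 1372 and 1184 with vehicle and 1144, 1281 and 1266 with Tributyrin. The lowest value was that of Tributyrin mouse 1 and the highest that of vehicle mouse 2, with the other mice of the groups mixed between them. Its log2 fold change was -0.061 (standard error 0.0822, 95% interval -0.24 to 0.12). *Atf5* shares 82 exonic bases with *Nup62* on the other strand, a gene with 411 to 775 counts, and no source used here gives whether the counting used strand. The ratio of *Atf4* to *Atf5* in RPKM, chosen after the values were seen and not tested, needs no scaling between libraries. This ratio was 1.08, 0.91 and 1.01 with vehicle and 1.28, 1.01 and 1.2 with Tributyrin. Tributyrin mice 1 and 3 were the highest of the 6 in this ratio, and Tributyrin mouse 2 lay within the vehicle range.

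*Ddit3* encodes CHOP, a bZIP factor that promotes cell death under lasting stress. Its gene spans bases 127290774 to 127296288 of chromosome 10 (plus strand). The normalized counts were 279.6, 246 and 339 with vehicle and 266, 207 and 346 with Tributyrin. The third mouse of each group was high and the second low, so the spread was as wide within a group as over all mice. For *Ddit3* the log2 fold change was -0.076 (standard error 0.183, 95% interval -0.48 to 0.33). GENCODE M21 lists a second gene of this name, ENSMUSG00000116429, whose 105 exonic bases all lie in *Ddit3*. It had 0 counts in every library, and reads on these bases may not have been assigned to either gene. *Mars*, on the other strand, shares 68 exonic bases with *Ddit3*.

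*Chac1* and *Trib3* act downstream of ATF4 and CHOP. *Chac1* encodes an enzyme that degrades glutathione, and spans bases 119351229 to 119354381 of chromosome 2 (plus strand). Its normalized counts were 144, 177 and 157 with vehicle and 117, 191 and 129.6 with Tributyrin. The Tributyrin mice held both the highest and the lowest values. The SD of *Chac1* was 10.3% of the mean with vehicle and 27.2% with Tributyrin, where the counting error averaged 8.21%. For *Chac1* the log2 fold change was -0.13 (standard error 0.189, 95% interval -0.55 to 0.29).

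*Trib3* encodes a pseudokinase that binds AKT and restrains ATF4 and CHOP. It spans bases 152337422 to 152344032 of chromosome 2 (minus strand). The normalized counts were 53.0, 65.9 and 90.7 with vehicle and 56.1, 83.1 and 86.0 with Tributyrin. Vehicle mouse 3 was the highest and vehicle mouse 1 the lowest, so that the Tributyrin mice lay within the vehicle range. For *Trib3* the log2 fold change was 0.11 (standard error 0.247, 95% interval -0.44 to 0.66).

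**Figure D2:**
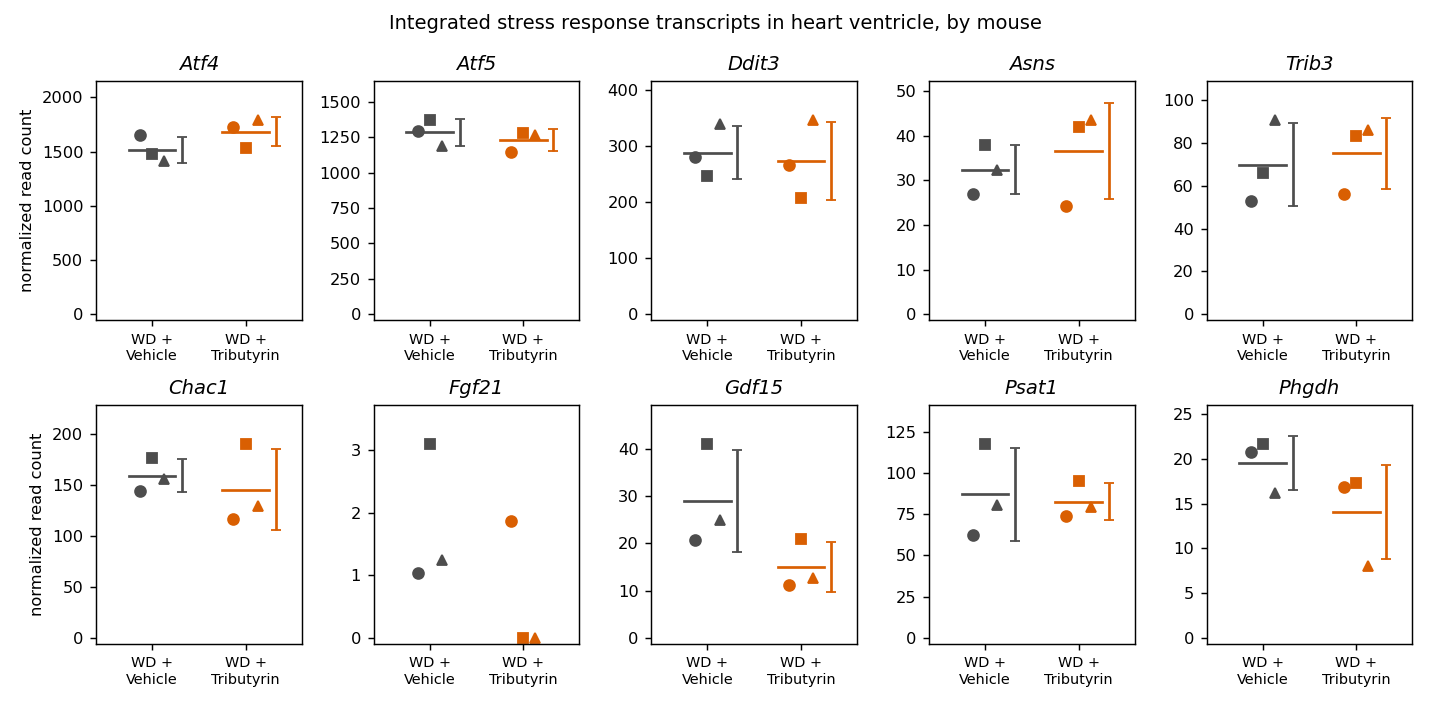
Normalized read counts of the 10 genes in heart ventricle, with 1 point per mouse (circle, square and triangle for replicates 1, 2 and 3), the group mean as a line and the SD as a bar (n = 3 per group, not drawn for *Fgf21*). Each vertical axis is linear, and the groups overlap in every panel.

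*Asns*, *Psat1* and *Phgdh* encode enzymes of amino acid synthesis. Asparagine synthetase makes asparagine from aspartate. *Asns* spans bases 7675169 to 7693254 of chromosome 6 (minus strand) and had only 26 to 49 counts per library. Normalized, these were 27.02, 38.0 and 32.3 with vehicle and 24.3, 42.0 and 43.6 with Tributyrin. Tributyrin mice 2 and 3 were the highest and Tributyrin mouse 1 the lowest of the 6. For *Asns* the log2 fold change was 0.16 (standard error 0.295, 95% interval -0.49 to 0.81), and it ran from 0.030 to 0.39 with 1 mouse left out. The counting error of *Asns* averaged 17.3% of a value, and its SD between mice was 16.9% with vehicle and 29.2% with Tributyrin.

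PHGDH and PSAT1 catalyse consecutive steps of serine synthesis from a glycolytic intermediate. *Psat1* spans bases 15904678 to 15947337 of chromosome 19 (minus strand). The normalized counts of *Psat1* were 62.4, 118 and 80.8 with vehicle and 73.9, 95.03 and 79.2 with Tributyrin. Vehicle mice 2 and 1 were the highest and the lowest, and the Tributyrin mice lay between them. Its log2 fold change was -0.086 (standard error 0.238, 95% interval -0.61 to 0.44).

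*Phgdh* spans bases 98313170 to 98339990 of chromosome 3 (minus strand). Its normalized counts were 20.8, 21.7 and 16.2 with vehicle and 16.8, 17.4 and 8.03 with Tributyrin, from 7 to 28 reads per library. Tributyrin mouse 3 stood low, while the other Tributyrin mice lay within the vehicle range. For *Phgdh* the log2 fold change was -0.46 (standard error 0.365, 95% interval -1.27 to 0.35). Of all 50-base words in the *Phgdh* transcripts, the length of the reads, 47.8% also occur in transcripts of other annotated genes, among them *Phgdh-ps1*, so part of its reads may have been dropped or split in the counting. This share was at most 1.81% for the other 9 genes.

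*Gdf15* and *Fgf21* encode secreted hormones of stress. GDF15 acts on the brainstem receptor GFRAL to lower food intake. *Gdf15* spans bases 70629393 to 70632456 of chromosome 8 (minus strand). Its normalized counts were 20.8, 41.1 and 24.8 in the vehicle mice and 11.2, 21.02 and 12.6 in the Tributyrin mice. Tributyrin mice 1 and 3 lay below every vehicle mouse, whereas Tributyrin mouse 2 was just above vehicle mouse 1. The means were 28.9 ± 10.7 for vehicle and 15.0 ± 5.30 for Tributyrin (SD, n = 3 each). The log2 fold change of *Gdf15* was -0.96 (standard error 0.379, 95% interval -1.80 to -0.12). In edgeR's model across genes the unadjusted p was 0.0289, at rank 338 of the genes tested, and the adjusted p was 0.999. The exact permutation test gave p = 0.2 for *Gdf15*, and the groups overlapped. *Gdf15* rested on 11 to 53 reads per library, for which the counting error averaged 23.1% of a value. In the same order of mice, the atrial markers summed to 182, 172 and 53.8 CPM with vehicle and 31.04, 64.4 and 46.3 CPM with Tributyrin. The part of atrial tissue in the *Gdf15* values was not tested. Without vehicle replicate 2, the log2 fold change was -0.59 (unadjusted p = 0.185 in edgeR's model across genes). *Gdf15* also had an unadjusted p above 0.05 without Tributyrin replicate 1 (0.0962) or without Tributyrin replicate 3 (0.0814), in the same model.

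FGF21 is made mainly in the liver and reaches other tissues through the co-receptor KLB. *Fgf21* spans bases 45613886 to 45615490 of chromosome 7 (minus strand). It had 1, 4 and 1 counts with vehicle and 2, 0 and 0 counts with Tributyrin. The vehicle sum was 6 of 78406987 counts (95% exact Poisson interval 2.2 to 13.1 counts) and the Tributyrin sum 2 of 81693236 (0.242 to 7.22 counts), and these intervals cover counting error only. They overlap, and no fold change is given at this depth.

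**Figure D3:**
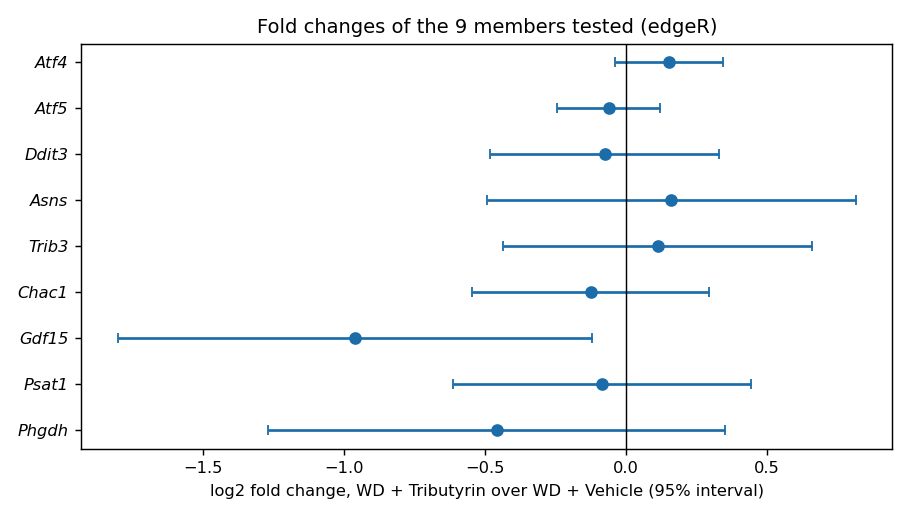
Log2 fold changes of the 9 genes tested, WD + Tributyrin over WD + Vehicle, with 95% intervals from edgeR's quasi-likelihood fit. The interval of *Gdf15* (-1.80 to -0.12) lies below 0 before adjustment over all genes, the other 8 include 0, and those of *Atf4* and *Atf5* are the narrowest.

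The mice differed in which of the 9 genes were high or low. Of the 9 genes, 7 were above their own mean in Tributyrin mouse 2, 2 in Tributyrin mouse 1 and 5 or 6 in each of the other mice. Vehicle mouse 2 was the highest of the 6 in *Atf5*, *Gdf15*, *Psat1* and *Phgdh*, and the lowest in 0 genes. Tributyrin mouse 1 was the lowest in *Atf5*, *Asns*, *Chac1* and *Gdf15*, and the highest in 0 genes. Tributyrin mouse 3 was the highest in *Atf4*, *Ddit3* and *Asns* but the lowest in *Phgdh*. The median deviation of the 9 genes from their own means, in log2 CPM, was 0.16 in vehicle mouse 2, -0.17 in Tributyrin mouse 1 and between 0.000704 and 0.097 in the other 4 mice. *Atf4* was at its lowest in vehicle mouse 3, a mouse in which *Trib3* was at its highest.

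**Figure D4:**
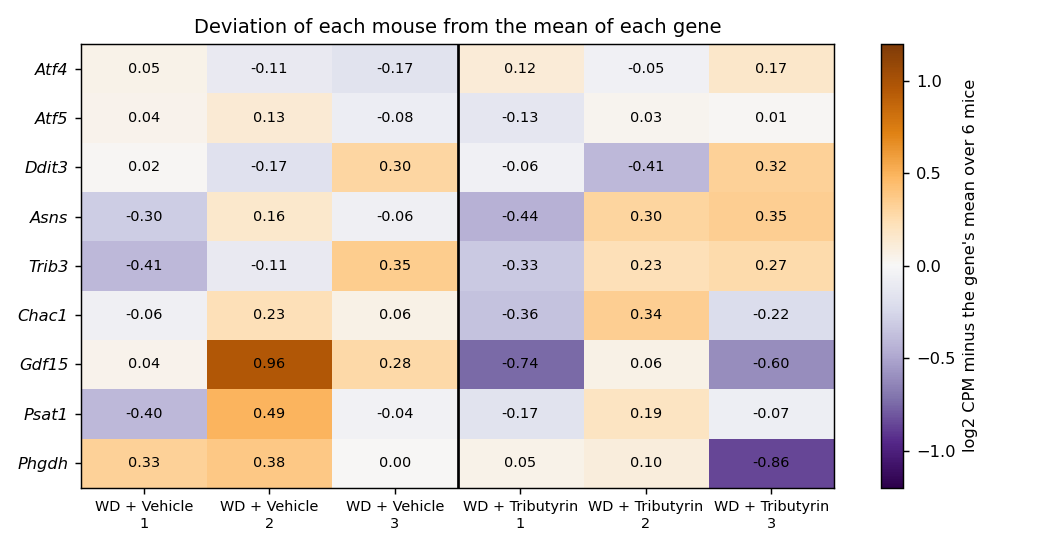
Deviation of each mouse from the mean of each gene over the 6 mice, in log2 CPM, for the 9 genes tested (rows) in the 3 vehicle and 3 Tributyrin mice (columns, split by the black line). The widest departures were 0.96 for *Gdf15* in vehicle mouse 2 and -0.86 for *Phgdh* in Tributyrin mouse 3, and no column has 1 sign throughout.

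The rest of the pathway was described by 9 lists holding 130 different genes, of which 124 were tested. By edgeR with Benjamini-Hochberg adjustment, 0 of them passed an FDR of 10%. At an unadjusted p under 0.05 there were 3 higher and 3 lower with Tributyrin, where 1.97% and 2.28% of all genes tested were called in these directions. The groups did not overlap in 7 genes that were higher and 4 that were lower, beside 4.26% and 4.65% of all genes. The median log2 fold change was 0.01 over the 124 genes. The median size of the log2 fold change was 0.0591 over these 124 genes, 0.126 over the 9 genes above and 0.0883 over all genes. These sets were not matched for read count, so the sizes are given as description only.

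Upstream of ATF4, all 17 genes were tested, for the eIF2 kinases, eIF2 and eIF2B subunits, phosphatase subunits and the upstream factors *Gcn1l1*, *Oma1* and *Dele1*. Of these, 7 were higher and 10 lower, with a median log2 fold change of -0.00671. An unadjusted p under 0.05 was reached by 0 of them and by 4.25% of all genes tested. The list ran from *Gcn1l1*, a partner of the kinase GCN2, at -0.13 (standard error 0.111) to *Oma1*, the protease that relays mitochondrial stress to the pathway, at 0.14 (0.0849).

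Of 15 bZIP partners and other stress transcription factors, 14 were tested, 7 higher and 7 lower. *Jun* had a log2 fold change of -0.22 (standard error 0.0893, unadjusted p = 0.0351 in edgeR's model across genes). *Jund* was at -0.20 (standard error 0.0739), from 1206 ± 51.1 normalized counts with vehicle to 1051 ± 47.7 with Tributyrin (SD, n = 3), and its groups did not overlap. *Fos*, their partner in AP-1, was at 0.52 (standard error 0.254), from 26.6 ± 2.99 to 38.0 ± 5.06 normalized counts (SD, n = 3), and its groups did not overlap. All 3 of these values had an adjusted p of 0.999 in edgeR's quasi-likelihood test.

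Among 13 tested genes of serine, glycine, one-carbon, proline and cysteine synthesis, 5 were higher and 8 lower. *Pycr1*, which makes proline in mitochondria, was the lowest at -0.61 (standard error 0.273, unadjusted p = 0.0498 in edgeR's model across genes), from 42.5 ± 8.87 to 27.6 ± 5.19 normalized counts (SD, n = 3). Its groups did not overlap. Of the 13 genes, 3 were lower and 0 higher without overlap, beside 4.65% and 4.26% of all genes. This was the list with the most genes lower without overlap. Each of the other lists had 0 or 1 lower and 0 to 2 higher. *Cth*, which makes cysteine from cystathionine, was the highest at 0.16 (standard error 0.375). *Cbs* did not pass the filter.

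Of 12 amino acid transporters, 10 were tested, 6 higher and 4 lower. *Slc7a1*, which carries arginine and lysine, had a log2 fold change of 0.39 (standard error 0.15, unadjusted p = 0.0248 in edgeR's model across genes). Its SD was 28.6 normalized counts around 1183 with vehicle and 386 around 1551 with Tributyrin (n = 3), and the groups overlapped. *Slc7a1* was at 0.58 without Tributyrin replicate 3 and at 0.21 without Tributyrin replicate 2. Its adjusted p was 0.0059 in edgeR with no filter on low counts, the only setting in which it passed an FDR of 10%, and one in which 167 of 25581 genes passed. *Slc1a4*, a carrier of neutral amino acids, was the lowest of the list at -0.48 (standard error 0.306).

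All 20 cytosolic aminoacyl-tRNA synthetases were tested, 12 higher and 8 lower, with a median of 0.00642. *Farsb*, a subunit of the phenylalanine enzyme, was the highest at 0.25 (standard error 0.0721, unadjusted p = 0.00536 in edgeR's model across genes). It went from 981 ± 49.8 to 1168 ± 10.6 normalized counts (SD, n = 3), and its groups did not overlap. *Vars*, for valine, was the lowest at -0.16 (standard error 0.109).

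Of the 17 other targets of ATF4 and CHOP, 11 were higher and 6 lower. *Tnfrsf10b*, a death receptor induced by CHOP, was the highest at 0.45 (standard error 0.202, unadjusted p = 0.0495 in edgeR's model across genes). It went from 42.2 ± 2.32 to 57.4 ± 3.23 normalized counts (SD, n = 3), and its groups did not overlap. *Aldh1l2*, a mitochondrial folate enzyme, was the lowest at -0.10 (standard error 0.19).

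The neighbouring stress pathways held no called gene. Of 18 genes for endoplasmic reticulum chaperones and degradation, 11 were higher and 7 lower, from *Ern1*, the sensor IRE1, at -0.25 (standard error 0.125) to *Manf*, a secreted protein of endoplasmic reticulum stress, at 0.12 (0.0992). Of 12 mitochondrial chaperones and proteases, 9 were higher and 3 lower, from *Htra2* at -0.20 (0.115) to *Clpx* at 0.11 (0.0785). In both lists 0 genes had an unadjusted p under 0.05 in edgeR's quasi-likelihood test, beside 4.25% of all genes tested. The groups did not overlap in 0 of the 18 genes and in 1 of the 12, beside 8.91% of all genes. Lists of this length are too short to tell these shares apart. Of 6 receptor genes for FGF21 and GDF15, 4 were tested and all 4 were lower, from *Fgfr2* at -0.48 (0.42) to *Fgfr3* at -0.049 (0.206). *Gfral* and *Klb* did not pass the filter on low counts.

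**Figure D5:**
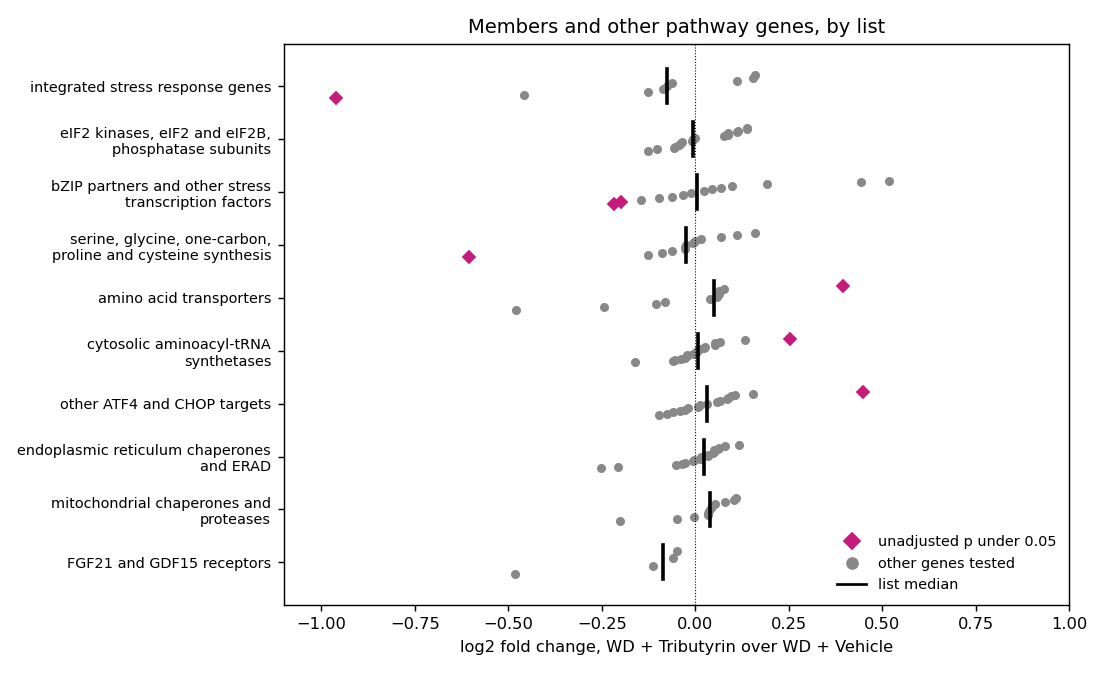
Log2 fold changes (WD + Tributyrin over WD + Vehicle) of the genes tested in each list, with 1 point per gene, a diamond for an unadjusted p under 0.05 and a black line for the list median. The medians lie between -0.087 for the receptors and 0.05 for the amino acid transporters, and *Gdf15* at -0.96 is the point farthest from 0.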

How the data were processed

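Heart ventricle RNA of 3 WD + Tributyrin and 3 WD + Vehicle mice was measured by stranded mRNA sequencing. The authors deposited whole-number counts per Ensembl gene without normalization, made from trimmed and quality-filtered reads, without rRNA reads, by STAR alignment and htseq-count. The submitters' processing notes name cutadapt 1.13, HTSeq 0.6.1p1, DESeq2 1.14.1 and the build mm10. For the counting, neither annotation release nor use of strand is given in the sources used here. Names, positions and exonic lengths came from GENCODE M21 (54165 of 54232 identifiers matched), and promoter sequences from RefSeq (GRCm38.p6).

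Groups were compared with edgeR 4.0.16 in R 4.3.3 by the quasi-likelihood test, with TMM scaling, a filter on low counts (filterByExpr, at least 10 counts and 15 in total) and p-values adjusted by Benjamini-Hochberg over all genes tested. DESeq2 1.42.0 and limma 3.58.1 were alternatives. The script was tested on simulated data. Standard errors are the log2 fold change divided by the square root of F, and 95% intervals use the t distribution on 10.3 degrees of freedom. RPKM were computed from the counts, effective library sizes and exonic lengths. Figures used matplotlib 3.10.9. Replicates are different mice. No pair of libraries was alike within sampling noise (chi-square per degree of freedom at least 7.4).

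The members and lists were chosen with earlier results of these data known. Named are the 10 genes and, in each list, the genes of highest and lowest log2 fold change and those at an unadjusted p under 0.05. *Mars1* of the synthetase list is *Mars* in GENCODE M21. Marker lists for fibroblasts, endothelial cells, smooth muscle and pericytes, macrophages and leukocytes, erythroid cells, adipocytes, skeletal muscle and liver were summed in CPM too, and the groups overlapped in each. The endothelial sums overlapped narrowly, at 874 to 894.6 CPM with vehicle and 894.1 to 1005 CPM with Tributyrin. By edgeR an unadjusted p under 0.05 was reached by 2 of 7 fibroblast markers. It was reached by 1 of 6 in each of the endothelial, smooth muscle and leukocyte lists. In the remaining lists it was 0 of those tested, beside 4.25% of all genes. The adipocyte markers summed to at most 2.86 CPM and the liver markers to at most 0.899 CPM, with *Alb* and *Serpina1a* at 0 in every library.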

Additional observations from a re-analysis of the deposited data

How the results depend on the processing

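In all alternatives run, 0 of the integrated stress response genes tested passed an FDR of 10% or 5%. Over all genes, 167 passed 10% with no filter, 11 by DESeq2, 2 with the block and 0 to 3 with a mouse left out, and 0 in the other fits. *Fgf21* entered only the fits without a filter, and 4 genes passed a mean CPM of at least 5, computed for this filter from library totals alone. The direction of the 9 genes was the same in 58 of 58 values under the other scalings, filters, tools and the block. With library size alone the median log2 fold change of all genes was -0.0736, and *Atf4* was at 0.080. The count at an unadjusted p under 0.05 was 0 with a mean CPM of at least 5, which removes *Gdf15*, beside 3.78% of all genes in that fit. It was also 0 by DESeq2, where *Gdf15* had an unadjusted p of 0.0531 in the model across genes. With each mouse left out it ran from 0 to 3, and the count of genes with groups that did not overlap ran from 0 to 3, both highest without Tributyrin replicate 2. Without that mouse 9.56% of all genes had an unadjusted p under 0.05 and 27.2% did not overlap, against 2.68% to 4.9% and 15.4% to 19.6% without each of the others. *Atf4* was then at 0.21 (unadjusted p 0.0271 in edgeR's model across genes). Without vehicle replicate 1, *Atf4* was at 0.22 (unadjusted p 0.0443 in that model). The log2 fold change changed sign for some left-out mouse in *Ddit3* (-0.27 to 0.089), *Trib3* (-0.042 to 0.33), *Chac1* (-0.38 to 0.020), *Psat1* (-0.27 to 0.22), *Cth* (-0.12 to 0.64), *Aldh1l2* (-0.30 to 0.12) and *Fgfr3* (-0.30 to 0.18). *Gdf15* ran from -1.30 to -0.59, *Phgdh* from -0.63 to -0.20, *Asns* from 0.030 to 0.39, *Atf5* from -0.11 to -0.0060, and the median of the 9 genes from -0.11 to -0.0046. In the wider lists, the count at an unadjusted p under 0.05 ran from 0 to 5 per list over the alternatives. The cause was not tested.

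With the replicate number as a block, 0 of the 9 genes passed an FDR of 10%, and *Gdf15* was at -0.94. An unadjusted p under 0.05 was reached by 1 of the 9 genes and by 5.17% of all genes in this fit. The deviations of mice with equal numbers correlated at 0.214, 0.0375 and 0.0147, and vehicle mouse 2 correlated better with Tributyrin mouse 3 (0.152), so no pairing was taken from them. Genes with few reads, such as *Gdf15*, *Phgdh* and *Asns*, have wide intervals at this depth.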
